A study of Mus musculus with 77 samples.

Results

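The family of miR-148a, miR-148b and miR-152 was followed through chronic social defeat stress (CSDS) in mice, both in blood and in a forebrain region that controls anxiety, the bed nucleus of stria terminalis (BNST). All miRNAs whose name starts with mmu-miR-148a, mmu-miR-148b or mmu-miR-152 were taken, both arms of each hairpin. This gave 6 mature miRNAs, 6 of the 788 miRNAs measured in the BNST and 2 of the 299 measured in blood.

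Mice were males of the inbred strains labelled C57BL/6Crl (B6) and DBA/2Crl (D2), which the paper names C57BL/6NCrl and DBA/2NCrl. They were 8 weeks old at dissection. Defeated mice were classed by the study as susceptible or resilient from their social avoidance relative to undefeated controls of the same strain, and tissue was taken 6 to 8 days after the last defeat. For sequencing, the paper chose defeated mice at the extremes of social interaction and controls nearest the mean. Its timeline also holds a forced swim test 5 days after the end of CSDS. RNA bound to AGO2, the protein that carries miRNAs to their targets, was precipitated from pools of 3 BNSTs of B6 mice. AGO2 miRNA came from 5 control, 5 resilient and 3 susceptible pools, and AGO2 mRNA from 5 control, 5 resilient and 4 susceptible pools. Blood miRNA and mRNA came from the same 25 mice, 5 in each of B6 control, B6 resilient, B6 susceptible, D2 control and D2 susceptible. The BNST precipitates were made from B6 mice only, a pool averages 3 animals, and blood was a mixture of all its cells.

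Each miRNA hairpin yields a 5p and a 3p strand, and AGO2 usually keeps one of them. Bases 2 to 8 of the strand, the seed, pair with target mRNAs and lower their stability or translation. The family is known for restraining the DNA methyltransferase gene Dnmt1.

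The mature sequences are shown because the seed sets which members can share targets. They are the RefSeq entries on GRCm38.p6, written 5′ to 3′ with the seed in capitals, and all 6 names were found there.
mmu-miR-148a-3p: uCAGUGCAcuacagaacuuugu
mmu-miR-148b-3p: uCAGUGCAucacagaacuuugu
mmu-miR-152-3p: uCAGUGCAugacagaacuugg
mmu-miR-148a-5p: aAAGUUCUgagacacuccgacu
mmu-miR-148b-5p: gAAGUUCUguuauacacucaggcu
mmu-miR-152-5p: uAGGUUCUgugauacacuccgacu

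The 3 3p strands had the same seed, and no other of the 1738 mature mouse miRNAs of the table carried it. Counted from the 5′ end, mmu-miR-148a-3p and mmu-miR-148b-3p differed by C9U and U10C alone. mmu-miR-152-3p differed from mmu-miR-148a-3p by C9U, U10G and U20G and ended 1 base earlier. mmu-miR-148a-5p and mmu-miR-148b-5p shared a second seed that no other miRNA had, but differed at 9 of the 22 positions they both have. The seed of mmu-miR-152-5p differed from theirs by A3G.

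The hairpins lie on 3 chromosomes. Mir148a (chr6:51269812-51269910, minus strand) overlapped no other annotated gene, and the nearest protein-coding gene, Nfe2l3, was 162760 bases away. Mir148b (chr15:103285125-103285221, plus strand) lies in an intron of Copz1, and Mir152 (chr11:96850393-96850465, plus strand) in an intron of Copz2, both on the strand of their host. The 2 hosts encode zeta subunits of the COPI coat that buds vesicles from the Golgi.

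Reads on the listed miRNAs ranged from 3173294 to 9404828 per BNST pool and from 6916739 to 10113657 per blood sample. The 10 most abundant miRNAs held 44.4% to 47.5% of these reads in the BNST and 83.3% to 87.8% in blood. All 3 neuronal marker miRNAs (miR-124-3p, miR-9-5p and miR-128-3p) were present in BNST, at a summed 19773 to 33450 CPM (counts scaled to a common library total) over the pools. In blood, 4 of 5 erythroid miRNAs were present and took a median of 35.3% to 39.8% of reads by group. For 2 D2 blood samples, labelled control 2 and susceptible 2, the data column carries the name of the opposite group. D2 values below follow the labels. Values by column name are given beside the main D2 comparisons. Marker sums, correlations within groups and fits with a sample left out follow the labels alone. Neither grouping could be checked against a record independent of these data. The fold change that the paper reports for miR-148a in blood of D2 susceptible mice lies nearer the value by column name. On the log2 scale the values here were -0.33 by column name and -0.23 by label. By nominal p, the paper found miR-148a raised in B6 susceptible mice and lowered in D2 susceptible mice, each against controls.

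The family was mainly 3p strand in the BNST. Levels are log2 CPM as the authors deposited them. The 6 strands are 21 to 24 bases long and were compared by their reads. How evenly the libraries captured different strands was not tested, so the order below is one of reads. mmu-miR-148a-3p was the most abundant member, at 12.10 ± 0.20 (SD, n = 5) in control, 12.12 ± 0.26 (n = 5) in resilient and 12.22 ± 0.15 (n = 3) in susceptible pools. It ranked 44 of 788 miRNAs and took 0.347% to 0.569% of reads. mmu-miR-148b-3p followed at 9.63 ± 0.09, 9.82 ± 0.14 and 9.66 ± 0.04 in the same groups, at rank 107. No pool of one reached the range of the other.

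The other 4 strands were scarcer. mmu-miR-148b-5p had a mean of 5.31 over all pools (rank 293), mmu-miR-148a-5p 3.86 (rank 376), mmu-miR-152-3p 3.80 (rank 380) and mmu-miR-152-5p 2.21 (rank 489). mmu-miR-148a-5p (3.12 to 4.52) and mmu-miR-152-3p (3.28 to 4.50) covered the same range and could not be ordered, whereas the other neighbours in this order did not overlap. mmu-miR-152-5p rested on 10 to 42 reads a pool and mmu-miR-152-3p on 31 to 134, against 11003 to 47335 for mmu-miR-148a-3p. These read numbers carry counting error, and reads without molecular identifiers are not independent molecules.

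Strand preference was far apart between the 3 hairpins, whose ranges over the 13 pools did not overlap. Within control pools, mmu-miR-148a-3p exceeded mmu-miR-148a-5p by 8.27 ± 0.65 on the log2 scale, 309-fold. mmu-miR-148b-3p exceeded mmu-miR-148b-5p by 4.51 ± 0.25, or 22.7-fold. mmu-miR-152-3p exceeded mmu-miR-152-5p by 1.76 ± 0.49, or 3.38-fold. These differences within a library do not depend on its scaling, but they compare reads of different strands, whose capture was not tested. No difference between groups in strand preference passed a test, with exact permutation p-values of 0.135 to 0.911. The lowest was for miR-148b in resilient against control pools, with a change of -0.24 (exact permutation p = 0.135, 252 splits, two-sided). The 3 3p strands together held 0.512% ± 0.063 of reads in control, 0.545% ± 0.087 in resilient and 0.578% ± 0.056 in susceptible pools, and the 5p strands 0.00525%, 0.00687% and 0.00572%.

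**Figure D1:**
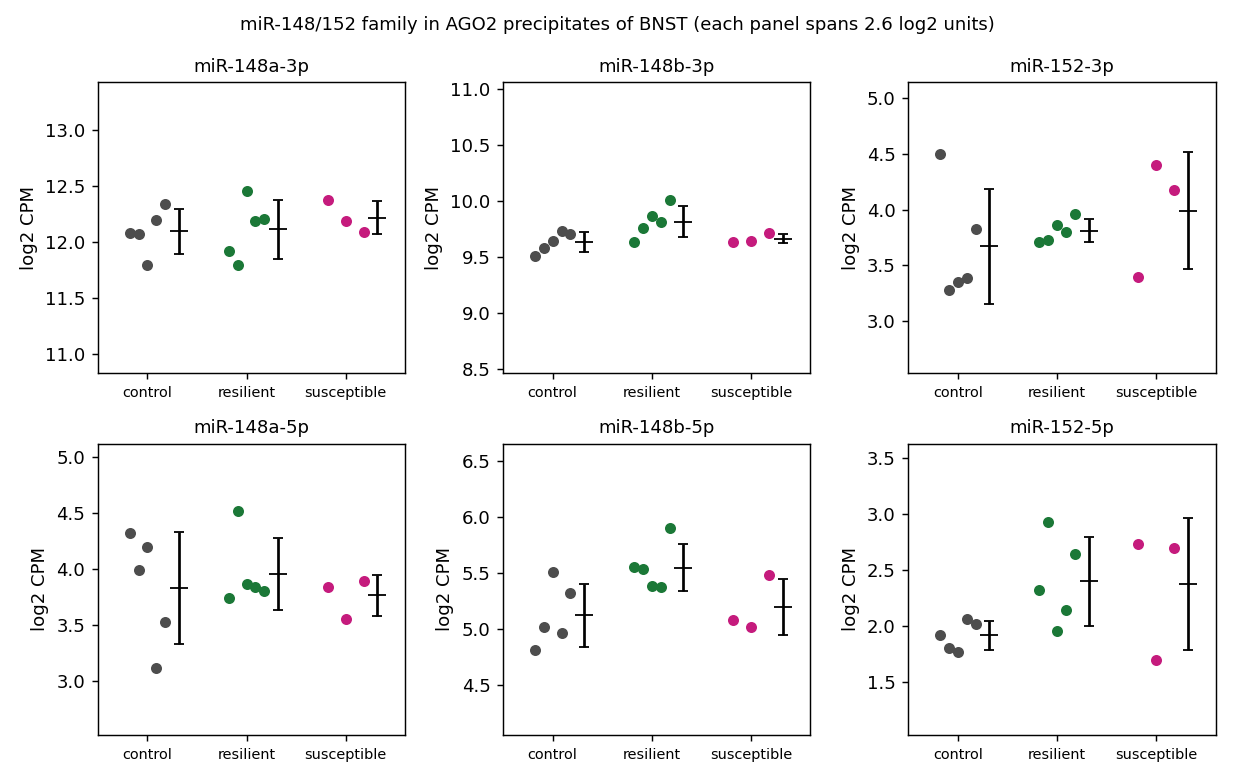
Levels (log2 CPM) of the 6 family members in AGO2 precipitates of BNST, 1 point per pool of 3 B6 mice, with the mean and SD of each group beside the points. Every panel spans the same 2.6 log2 units; the 5 resilient pools of miR-148b-5p lie at 5.38 to 5.90, 3 of them above every control pool.

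Pools with more mmu-miR-148a-3p had more mmu-miR-212-3p and mmu-miR-132-3p, a pair made from 1 locus that neuronal activity induces through CREB. Of 787 other miRNAs, these had the highest Pearson r with mmu-miR-148a-3p over the 13 pools, at 0.94 for mmu-miR-212-3p and 0.90 for mmu-miR-132-3p, followed by mmu-miR-431-5p at 0.89. After the mean of each group was removed, r was 0.94, 0.91 and 0.92. The points share library and depth, and the 3 were picked as the highest of many. mmu-miR-148a-3p itself spanned only 11.80 to 12.46.

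**Figure D2:**
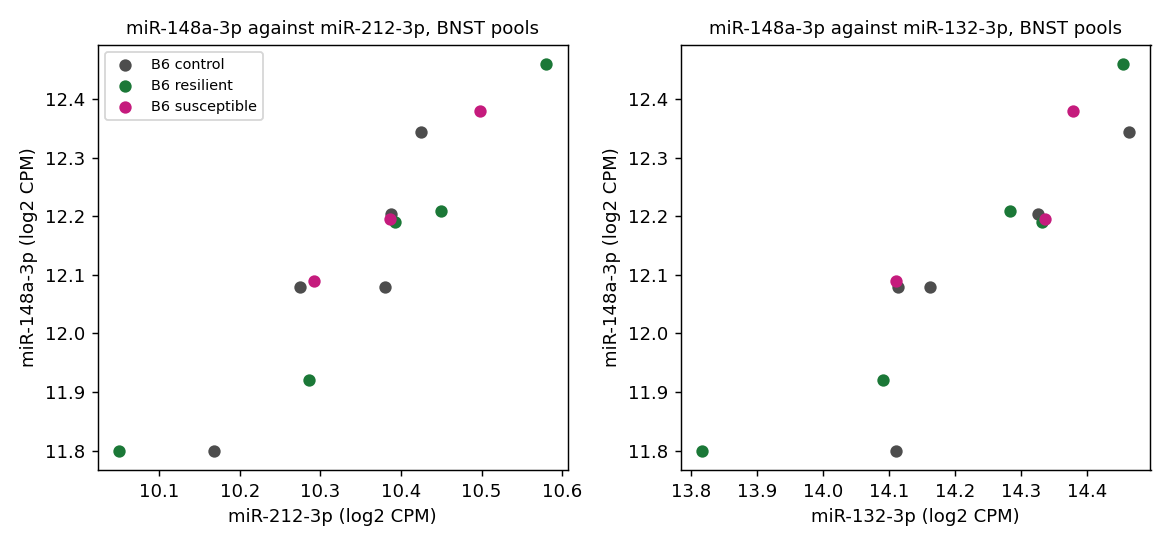
Level of miR-148a-3p (vertical axis, log2 CPM) against miR-212-3p and miR-132-3p (horizontal axes, log2 CPM) in the 13 BNST pools, coloured by group. The points follow a line in both panels and the groups are mixed along it; resilient pool 2 is at or next to the low end, with 11.80 for miR-148a-3p, 10.05 for miR-212-3p and 13.82 for miR-132-3p.

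The correlation between the strands of 1 hairpin ranged from positive to negative. mmu-miR-148b-5p and mmu-miR-148b-3p had r = 0.71 over the pools, and 0.49 within groups. mmu-miR-148a-5p and mmu-miR-148a-3p had r = -0.55, and mmu-miR-152-5p and mmu-miR-152-3p had r = -0.04. mmu-miR-148b-5p was most like mmu-miR-126a-5p, mmu-miR-26b-5p and mmu-miR-186-5p, all with r = 0.89. The dominant 3p strands of miR-148a and miR-148b had r = 0.30. These are descriptions over 13 libraries, and the scarce strands carry more counting error.

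Resilient pools held more mmu-miR-148b-5p than control pools. It stood at 4.81, 5.02, 5.51, 4.97 and 5.32 in control pools 1 to 5 and at 5.55, 5.53, 5.38, 5.38 and 5.90 in resilient pools 1 to 5. Control pool 3 lay within the resilient range, and the other 4 control pools lay below every resilient pool. This was a log2 fold change of 0.42 (SE 0.18, 95% interval 0.05 to 0.80), 1.34-fold, with an exact permutation p of 0.0317 over 252 splits. It was called by the criteria of the study, an unadjusted p under 0.05 in limma and a fold of at least 1.2, but its adjusted p in limma was 0.325. Of all miRNAs 9.52% were called in this comparison, and 1 of the 6 members was. Susceptible pools were at 5.08, 5.02 and 5.48, within the control range. The call was lost without control pool 1 (log2 fold change 0.35), control pool 2 (0.40), control pool 4 (0.38) or resilient pool 5 (0.34).

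The partner strand mmu-miR-148b-3p lay in the same direction. Control pools were at 9.51, 9.58, 9.65, 9.73 and 9.70 and resilient pools at 9.63, 9.76, 9.87, 9.81 and 10.01. Resilient pool 1 was within the control range and the other 4 above it. Resilient against control, this gave 0.18 on the log2 scale (SE 0.09, interval -0.01 to 0.37; exact permutation p = 0.0397; adjusted p = 0.421 in limma), below the fold needed for a call.

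mmu-miR-152-5p was at 1.77 to 2.06 in control pools and at 1.95 to 2.93 in resilient pools, 4 of which lay above every control pool. The log2 fold change was 0.48 (SE 0.35, interval -0.25 to 1.22; exact permutation p = 0.0238), and with an adjusted p of 0.641 in limma it was not called. It had 10 to 18 reads per control pool and 23 to 42 per resilient pool. The 3 remaining members gave 0.01 for mmu-miR-148a-3p (interval -0.25 to 0.27), 0.12 for mmu-miR-148a-5p (-0.43 to 0.67) and 0.14 for mmu-miR-152-3p (-0.43 to 0.71).

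Marker miRNAs also varied between the groups. The platelet list (miR-223-3p and both strands of miR-126a, which endothelial cells also express) was present with 3 of 3 members. Its sum was 3644 to 4954 CPM in control, 4295 to 6336 in resilient and 3919 to 5493 in susceptible pools. The 2 oligodendrocyte miRNAs summed to 2281 to 2827 CPM in control and 1936 to 3496 in resilient pools. The 2 choroid plexus miRNAs summed to 11839 to 32355 CPM in control (median 28074), 13043 to 31575 in resilient (median 15066) and 10670 to 20782 in susceptible pools (median 12645). The neuronal miRNAs had medians of 27716, 23889 and 28352 CPM in the same groups. The 5 miRNAs of the lymphoid list (miR-150-5p, miR-155-5p, miR-181a-5p and both strands of miR-142a) had 4510, 3881 and 4516 CPM. Which cells of the BNST held the members of this list was not tested. The part of these lists in the difference of mmu-miR-148b-5p was not tested. In bulk tissue, fewer cells of a type and less RNA per cell cannot be told apart.

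No member was called in susceptible pools, neither against control, where 4.7% of all miRNAs were called, nor against resilient pools, where 3.93% were. Against control, mmu-miR-148a-3p gave 0.12 (interval -0.18 to 0.42), mmu-miR-148b-3p 0.03 (-0.19 to 0.25) and mmu-miR-148b-5p 0.07 (-0.36 to 0.50). The scarce members allowed much wider changes, with -0.39 to 1.30 for mmu-miR-152-5p, -0.34 to 0.98 for mmu-miR-152-3p and -0.70 to 0.57 for mmu-miR-148a-5p. Against resilient pools, mmu-miR-148b-5p was lower by a log2 of -0.36 (SE 0.21; exact permutation p = 0.0893, where 56 splits were possible). Without susceptible pool 4 that value was -0.50, past the threshold for a call.

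**Figure D3:**
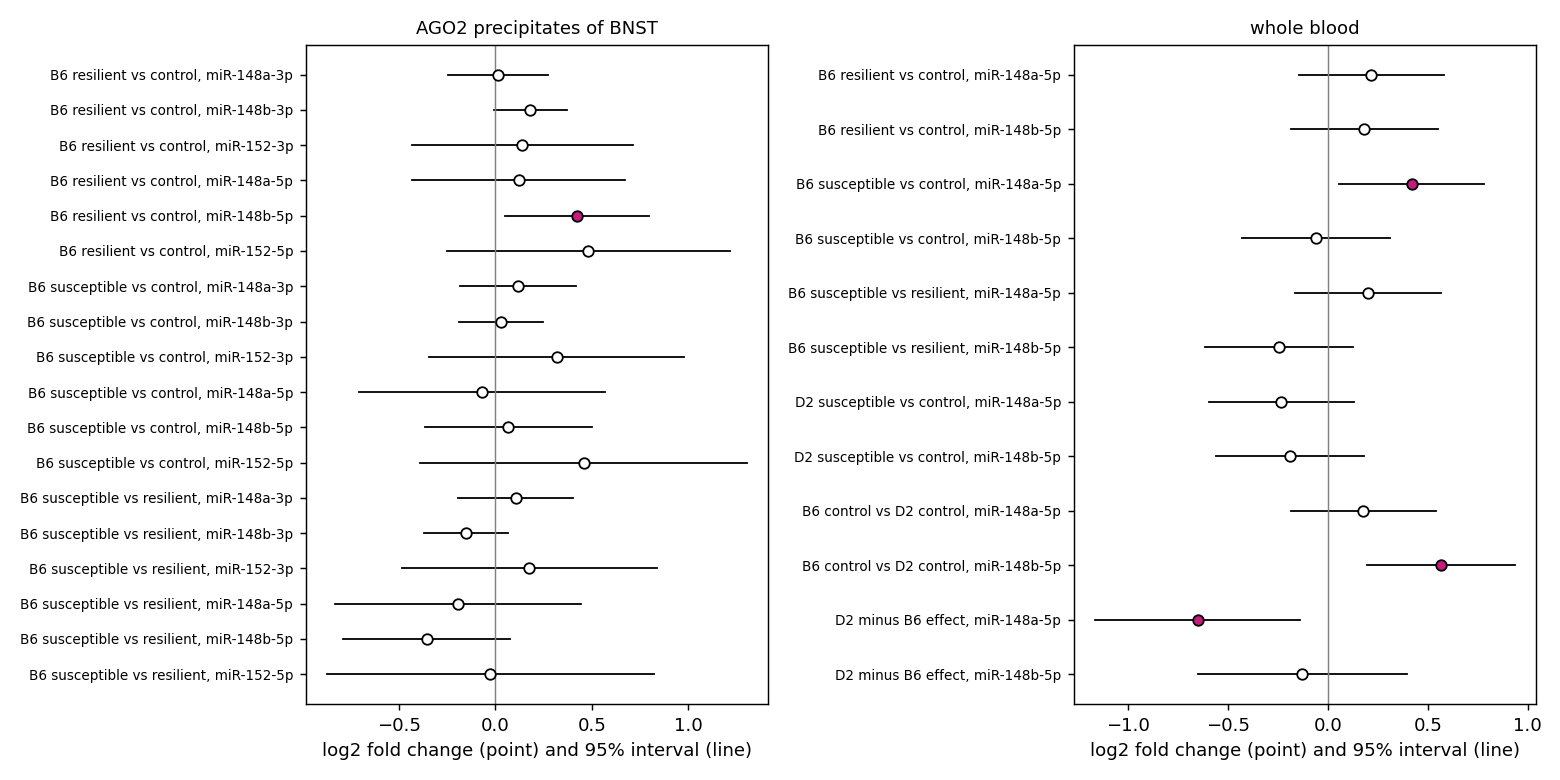
Log2 fold change (points) with its 95% interval (lines) of each family member in each comparison of BNST pools (left) and blood samples (right), from limma. Filled points passed the unadjusted call (p under 0.05 and at least 1.2-fold): miR-148b-5p in resilient BNST at 0.42, and in blood miR-148a-5p at 0.42 in B6 susceptible mice, miR-148b-5p at 0.57 between control strains and miR-148a-5p at -0.65 for the difference of effects.

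The host genes were measured in AGO2 mRNA of the same animals. Copz1 was at 5.78 ± 0.15 log2 CPM in control (n = 5), 5.71 ± 0.21 in resilient (n = 5) and 5.84 ± 0.20 in susceptible pools (n = 4). Its change was -0.07 (interval -0.32 to 0.18) in resilient and 0.06 (-0.20 to 0.32) in susceptible pools, and it was not called. Copz2 was low, at 0.82 ± 0.45, 0.60 ± 0.58 and 0.67 ± 0.47, with changes of -0.22 (-0.97 to 0.54) and -0.14 (-0.95 to 0.66). Over the 13 pools with both data types, Copz1 had r = 0.09 (rho 0.06) with mmu-miR-148b-3p and -0.02 (rho 0.04) with mmu-miR-148b-5p. Copz2 had r = 0.55 (rho 0.50) with mmu-miR-152-3p and -0.15 (rho -0.19) with mmu-miR-152-5p. These are AGO2-bound transcripts, not total host RNA.

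Genes reported or predicted as targets of the family were then followed in AGO2 mRNA. A list of 25 was used, of which 23 were measured. Complete matches to the 3p seed (TGCACTG on the transcript strand) were counted in the longest annotated 3′ UTR of each gene in GENCODE M21. Of the 25 genes 18 held one, against 12.7% of 21037 genes with such a UTR. With an A after it (TGCACTGA, which contains the first motif) the numbers were 11 of 25 and 3.59%. The match to the shared seed of the 5p strands (AGAACTT) was in 8 of 25 and in 13.8% of all. Targets are often listed for such matches, so these shares describe the list. Neither the 3p nor the 5p match was in 4 of 25, among them Cdc25b and Alcam. Cdkn1b, Irs1 and Igf1r held the 5p match but no 3p match. Sites of 2 genes discussed below are shown with 10 bases on each side and the match in capitals, on GRCm38.
Dnmt1, chr9:20907481-20907508, minus strand: gagccccacgTGCACTGAtgtttttaac
Erbb3, chr10:128567863-128567890, minus strand: cgtttgttggTGCACTGAatcaagcaaa

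In susceptible pools 9 of 23 targets were called against control, 6 higher and 3 lower. Of all 16587 genes 18.9% were called, 9.65% higher and 9.28% lower. In resilient pools 6 of 23 were called against control, 3 higher and 3 lower, where 17.7% of all genes were called, 8.65% higher and 9.04% lower. The 5 control pools are shared by these comparisons. The median log2 fold change of the list was -0.02 in susceptible and 0.09 in resilient pools, against -0.01 and -0.02 over all genes. None was called between susceptible and resilient pools, against 2.14% of all genes, but 2 were without resilient pool 3 and 1 was without resilient pool 4. The list was drawn up with earlier results of these data known. As with the hosts, target values are of AGO2-bound transcripts, not total RNA. More transcript and more binding to AGO2 cannot be told apart.

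Dnmt1 encodes the enzyme that copies DNA methylation at replication. It stood at 6.15, 6.19, 6.09, 6.26 and 6.21 log2 CPM in control pools, at 6.40, 6.38, 6.54, 6.37 and 6.48 in resilient pools and at 6.41, 6.67, 6.64 and 6.37 in susceptible pools. Every defeated pool lay above every control pool. The log2 fold change was 0.34 in susceptible pools (SE 0.09; exact permutation p = 0.00794; adjusted p = 0.0390 in limma) and 0.25 in resilient pools (SE 0.08; exact permutation p = 0.00794; adjusted p = 0.105 in limma). The second was just under the fold needed for a call, and reached it without control pool 4, resilient pool 2 or resilient pool 4 (0.27 each). At an adjusted p under 0.05, 2 targets passed in susceptible pools, where 4.02% of all genes did, and 1 in resilient pools, where 1.95% did.

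Erbb3 was called higher in both groups of defeated pools. This gene, a neuregulin receptor, was at 5.81 to 5.98 in control pools, 6.06 to 6.87 in resilient and 5.95 to 7.15 in susceptible pools. Of the defeated pools, susceptible pool 3 alone overlapped the controls. Its log2 fold change was 0.70 in susceptible (SE 0.19; adjusted p = 0.0450 in limma) and 0.62 in resilient pools (SE 0.18; adjusted p = 0.0669 in limma). Irs1, which relays insulin and IGF1 signals, gave 0.33 in both comparisons (adjusted p = 0.142 and 0.137 in limma), and lost the call in both without control pool 5 (0.27 and 0.26) and in susceptible pools without susceptible pool 3 (0.26).

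Cdc25b, a phosphatase that starts mitosis, was at 4.98 to 5.49 in control pools and at 5.51 to 6.09 in resilient pools, with no overlap. Its change on the log2 scale was 0.54 in resilient (SE 0.13; adjusted p = 0.0475 in limma) and 0.43 in susceptible pools (SE 0.14; adjusted p = 0.0907 in limma). Cdkn1b, an inhibitor of the cell cycle, was called lower in both, at -0.29 and -0.34 (adjusted p = 0.227 and 0.172 in limma). In resilient pools the call was lost without the mean-variance trend (-0.29) and on leaving out control pool 1 (-0.26), 2 (-0.21) or 4 (-0.29) or resilient pool 1 (-0.30), 3 (-0.24) or 5 (-0.27), and in susceptible pools control pool 1 (-0.31) or 2 (-0.27) or susceptible pool 2 (-0.21) or 3 (-0.32).

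In susceptible against control pools, Abca1, which exports cholesterol from cells, gave 0.27 on the log2 scale (SE 0.09; exact permutation p = 0.0159; adjusted p = 0.0873 in limma), with all 4 susceptible pools above all controls. It was called, but at the edge of the fold threshold, and was not called when control pool 2 (0.22), control pool 4 (0.26) or susceptible pool 2 (0.22) was dropped.

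Camk2a and Alcam were lower in susceptible pools. Camk2a, a synaptic kinase of neurons, was at 8.98 to 9.41 in control and 8.55 to 8.93 in susceptible pools, with no overlap. This gave -0.47 on the log2 scale (SE 0.13; adjusted p = 0.0502 in limma). In resilient pools it was -0.30 (adjusted p = 0.168 in limma), and the call was lost without control pool 4 (-0.24), resilient pool 2 (-0.22) or resilient pool 4 (-0.27). Alcam, an adhesion protein of axons and leukocytes, was -0.44 in susceptible pools (adjusted p = 0.188 in limma), a call lost on dropping control pool 1 (-0.40) or 5 (-0.39), or susceptible pool 3 (-0.30) or 4 (-0.44), and without the mean-variance trend (-0.44).

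**Figure D4:**
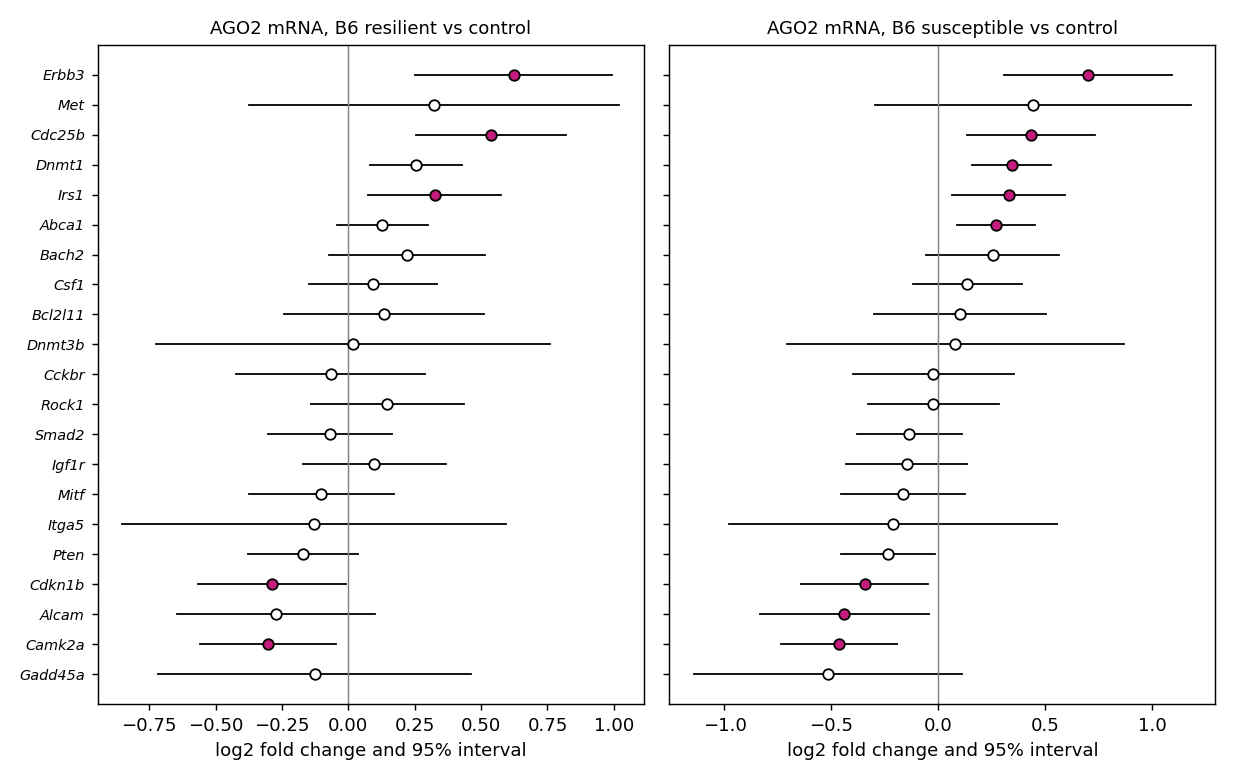
Log2 fold change with 95% interval of 21 of the 23 listed target genes measured in AGO2 mRNA, for resilient (left) and susceptible (right) against the same control pools, ordered by the susceptible value. Filled points passed the unadjusted call; 5 are filled on the left and 8 on the right, on both sides of 0.

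Some cell type marker sums differed between groups in the AGO2 mRNA too, and not all in the same direction. The 5 neuron genes (5 of 5 measured) summed to 1900 to 2104 CPM in control, 1728 to 1887 in resilient and 1376 to 1869 in susceptible pools. The 4 oligodendrocyte genes (4 of 4) summed to 3189 to 4920, 1958 to 3982 and 1796 to 3205 CPM. The 3 choroid plexus genes (3 of 3) summed to 2.33 to 120, 4.10 to 86.8 and 1.06 to 34.2 CPM. Astrocyte genes (4 of 4) had medians of 339, 332 and 327 CPM in the same groups, and endothelial genes (3 of 3) 103, 96.5 and 78.6 CPM. Medians were 31.0, 40.9 and 41.0 CPM for monocyte genes (2 of 4) and 5.10, 7.66 and 7.44 CPM for neutrophil genes (1 of 6). The part of these in Camk2a, Erbb3 and the other targets was not tested.

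Of the AGO2 genes 13866 had an annotated 3′ UTR, and of all these 18.3% were called in resilient pools (1133 higher and 1399 lower) and 19.98% in susceptible pools (1354 higher and 1417 lower). The 605 that held TGCACTGA, the match to the 3p seed, were called in 18.3% (45 higher and 66 lower) and 21.7% (53 higher and 78 lower). Their median log2 fold change was -0.03 in resilient and -0.02 in susceptible pools, as over all 13866. The 2208 that held AGAACTT, the match to the seed of mmu-miR-148a-5p and mmu-miR-148b-5p, were called in 16.1% (115 higher and 241 lower) and 19.2% (162 higher and 263 lower). Their median was -0.05 in both comparisons, against -0.03 and -0.02 over all 13866. These counts are a description and were given no test.

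In blood, mmu-miR-148a-5p and mmu-miR-148b-5p were the only members listed, and no values of the other strands were at hand. Blood results thus concern 5p strands, the scarcer strands of their hairpins in the BNST. The 3p strands that dominated there have no blood values here. Of the names listed in blood 254 are 5p strands and 17 are 3p strands. mmu-miR-148b-5p ranked 68 of 299, with a mean of 6.79 log2 CPM and 586 to 1317 reads a mouse. mmu-miR-148a-5p ranked 146, with a mean of 2.80 and 38 to 110 reads. In B6 control mice the first exceeded the second by 4.23 ± 0.21 (n = 5), 18.8-fold, whereas in the B6 control BNST the same difference was 1.29 ± 0.56 (n = 5), 2.45-fold. The libraries of the 2 tissues were made with different kits, so this gap between tissues was given no test.

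mmu-miR-148a-5p was higher in blood of B6 susceptible mice. Control mice were at 2.57, 2.76, 2.94, 2.63 and 3.07, resilient mice at 3.20, 2.76, 3.00, 3.09 and 3.00, and susceptible mice at 2.89, 2.86, 3.23, 3.72 and 3.36. Of the susceptible mice 3 lay above all controls, and 2 lay within the control range. The log2 fold change against control was 0.42 (SE 0.18, interval 0.06 to 0.78), 1.34-fold, with an exact permutation p of 0.0556 over 252 splits. It passed the unadjusted call in limma, as 4.01% of all miRNAs did, but its adjusted p in limma was 0.951. Without control mouse 1 (0.36), control mouse 4 (0.38), susceptible mouse 4 (0.29) or susceptible mouse 5 (0.38) it was not called. Fitted with B6 control and susceptible mice alone, or after quantile normalization (0.36), it was not called either.

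The susceptible mice of B6 differed by the prefix of their name. The 2 named EC3 were at 2.86 and 2.89 and the 3 named EC4 at 3.23 to 3.72. Control mice named EC3 were at 2.57 to 2.76 and those named EC4 at 2.63 to 3.07. Susceptible mice thus had the higher mean within each prefix, 2.88 against 2.66 and 3.44 against 2.88. In resilient mice the change of mmu-miR-148a-5p against control was 0.22 (interval -0.15 to 0.58) and was not called.

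In D2 mice the value for mmu-miR-148a-5p was negative. By label, control mice were at 2.61, 2.35, 2.52, 2.93 and 2.67 and susceptible mice at 2.28, 2.59, 2.38, 2.21 and 2.46. Control 2 and susceptible 2, the mice whose label and column name disagree, make the groups overlap. The log2 fold change was -0.23 (SE 0.18, interval -0.60 to 0.13; exact permutation p = 0.0873; adjusted p = 0.720 in limma), and was not called. By column name the groups did not overlap, with 2.52 to 2.93 in control and 2.21 to 2.46 in susceptible mice. The change was then -0.33 (exact permutation p = 0.00794, the smallest that 5 against 5 allows; adjusted p = 0.364 in limma), still not called. By label 8.7% of all miRNAs were called in this comparison, by column name 12.4%, and no member in either.

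The susceptible-against-control effects of the 2 strains on mmu-miR-148a-5p differed by -0.65 (D2 minus B6; SE 0.25, interval -1.17 to -0.14; exact permutation p = 0.00671 over 63504 splits within strains). This passed the unadjusted call, as 4.35% of all miRNAs did, with an adjusted p of 0.748 in limma. Over all 299 miRNAs the median of this difference was -0.10. By column name it was -0.75 (exact permutation p = 0.000913; adjusted p = 0.315 in limma), where 6.69% of all miRNAs were called. With the name prefix as covariate it was -0.58, and without any 1 mouse it lay between -0.74 and -0.53. After quantile normalization it was -0.43 and was not called. The permutation shuffled mice within each strain, so it tests for no effect in either strain and not for equal effects.

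Cell type markers in blood varied beside mmu-miR-148a-5p. The 6 platelet genes (6 of 6 measured in blood mRNA) summed to 1571 to 5764 CPM in B6 control (median 3931) and 3773 to 10541 in B6 susceptible mice (median 6245). In D2 they summed to 3489 to 13279 CPM in control (median 7167) and 2335 to 7570 in susceptible mice (median 5894). The platelet miRNA list (1 of 3 measured in blood) instead had a lower median in susceptible mice of both strains. Its medians were 146.6 and 128.8 CPM in B6 control and susceptible mice and 147.9 and 118.5 CPM in D2. The lymphoid miRNAs (3 of 5 measured) had medians of 7344 and 5628 CPM in B6 control and susceptible mice and of 3912 and 2711 CPM in D2. Neutrophil genes (6 of 6) had medians of 1100 and 1614 CPM in B6 and of 2241 and 1744 CPM in D2. In the same order, monocyte genes (4 of 4) had 1696, 1442, 2394 and 1804 CPM. B cell genes (5 of 5) had 867, 724, 547 and 614 CPM, and T cell genes (5 of 5) 115, 112, 137 and 128 CPM. The part of these lists in the values of mmu-miR-148a-5p was not tested.

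For mmu-miR-148b-5p no effect of defeat was called. Its changes were 0.18 (interval -0.19 to 0.55) in B6 resilient mice, -0.06 (-0.43 to 0.31) in B6 susceptible mice and -0.19 (-0.56 to 0.18) in D2 susceptible mice against control, and -0.24 (-0.61 to 0.13) in B6 susceptible against resilient mice. None was called, where 4.35% of all miRNAs were called in B6 resilient mice against control and 3.01% in B6 susceptible against resilient mice. The difference of effects between strains was -0.13 (interval -0.65 to 0.40). By column name the change of mmu-miR-148b-5p in D2 susceptible mice was -0.28 (-0.64 to 0.08) and the difference of effects -0.22 (-0.73 to 0.28), neither of them called.

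Between control mice of the strains, mmu-miR-148b-5p instead had a higher mean in B6 than in D2. B6 control mice were tightly grouped at 7.04, 7.05, 7.02, 6.99 and 7.04, and D2 control mice were at 7.06, 6.28, 6.48, 6.51 and 5.97. D2 control mouse 1 was above every B6 control mouse and the other 4 were below them all. The log2 fold change, B6 against D2, was 0.57 (SE 0.18, interval 0.20 to 0.94), 1.48-fold, with an exact permutation p of 0.0476 over 252 splits and an adjusted p of 0.0241 in limma. In this comparison 25.4% of all miRNAs were called and 17.7% had an adjusted p under 0.05. By column name the value was 0.52, with an adjusted p of 0.0414 in limma, where 28.4% of all miRNAs were called. The call held in every alternative tried, at 0.40 to 0.72, but the adjusted p ranged from 0.00107 to 0.101 and was above 0.05 without B6 control mouse 1, D2 control mouse 2 or D2 control mouse 5, with differences of 0.56, 0.52 and 0.45. It was also above 0.05 when values were scaled to the reads' own total (difference 0.40), with only the groups compared (0.57) and without the 2 D2 mice of disagreeing names (0.52). mmu-miR-148a-5p differed by 0.18 (interval -0.19 to 0.54), or by 0.13 (-0.22 to 0.47) by column name, and was not called in either.

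**Figure D5:**
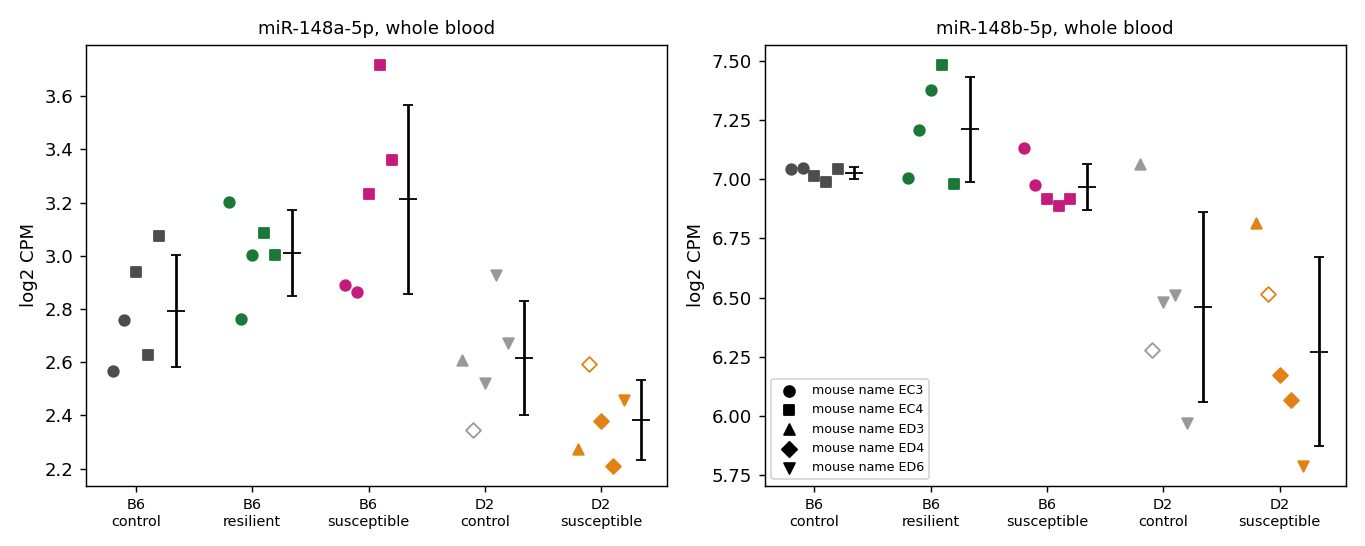
Levels (log2 CPM) of miR-148a-5p and miR-148b-5p in blood, 1 point per mouse grouped by label, with the mean and SD beside each group; the marker shape gives the prefix of the mouse name, and open markers are the 2 D2 mice whose label and column name disagree. For miR-148b-5p the 5 B6 control mice lie within 6.99 to 7.05 and the 2 D2 mice named ED3 at 6.82 and 7.06 lie above all other D2 mice.

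The spread of mmu-miR-148b-5p within D2 followed the mouse name. The 2 mice named ED3, control 1 and susceptible 1, were at 7.06 and 6.82. The 4 named ED4 were at 6.07 to 6.51 and the 4 named ED6 at 5.79 to 6.51. Without the ED3 mice, an alternative chosen after seeing the data, the strain difference of control mice was 0.72. The prefix is nested in strain, so its part in the strain difference cannot be told apart.

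The lymphoid miRNAs measured (3 of 5) moved with the strain. They summed to 4304 to 8964 CPM in B6 control and 1460 to 4518 CPM in D2 control mice. Marker genes in blood mRNA of the same mice did not all move this way. Medians in B6 and D2 control mice were 867 and 547 CPM for B cell genes and 115 and 137 CPM for T cell genes. They were 3931 and 7167 CPM for platelet, 1100 and 2241 CPM for neutrophil and 1696 and 2394 CPM for monocyte genes. The erythroid miRNAs summed to 333657 to 494012 and 243573 to 463808 CPM. The part of these lists in the strain difference of mmu-miR-148b-5p was not tested. Over all 25 mice mmu-miR-148b-5p was most like mmu-miR-5123 (r = 0.90), mmu-miR-3068-5p (0.88) and mmu-miR-21a-5p (0.86), and within groups these were 0.77, 0.76 and 0.68. mmu-miR-148a-5p was most like mmu-miR-5134-5p (0.72), mmu-miR-96-5p (0.70) and mmu-miR-7688-5p (0.70), which fell to 0.22, 0.34 and 0.10 within groups. The 2 members had r = 0.54 over all mice and -0.07 within groups.

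In blood mRNA of the same mice, Copz1 was at 4.34 ± 0.07 in B6 control and 4.29 ± 0.35 in D2 control mice, a difference of 0.05 (interval -0.30 to 0.39), and was not called in any comparison. By column name that difference was -0.03, and the change in D2 susceptible mice was -0.24 in place of -0.08. Over the 25 mice Copz1 had r = 0.35 (rho 0.35) with mmu-miR-148b-5p, and 0.02 within groups. Dnmt1 was at 6.77 ± 0.16, 7.08 ± 0.54 and 6.98 ± 0.40 in B6 control, resilient and susceptible mice and at 6.70 ± 0.16 and 6.86 ± 0.26 in D2 control and susceptible mice. It was not called in any comparison, but passed in B6 resilient mice without resilient mouse 5 (0.51, against 0.31 with all mice). In D2 susceptible mice its change was 0.16 by label and 0.04 by column name. As a mean share of reads, Dnmt1 was 0.0110%, 0.0120% and 0.0114% in B6 control, resilient and susceptible mice. The library size used for scaling was 0.64 to 1.53 times the reads of a blood mRNA library. A fit scaled to the reads' own total was made for miRNA only, so the part of scaling in these values was not tested.

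Of the target list 21 were measured in blood. None was called in B6 resilient (2.11% of all 13084 genes were), B6 susceptible (4.5%) or D2 susceptible mice (1.57%, or 6.8% by column name) against control, nor in B6 susceptible against resilient mice (2.03%). Leaving out 1 mouse raised this to at most 2 genes, in B6 susceptible mice against control without susceptible mouse 1, and to 1 gene without B6 control mouse 1 or 2. The other changes were 1 gene in B6 resilient mice without resilient mouse 5, 1 in B6 susceptible against resilient mice without susceptible mouse 1 or 5, and 1 in D2 mice without susceptible mouse 5. Between control mice of the strains 6 of 21 were called, where 26.4% of all genes were. Gadd45a, a DNA damage response gene, was higher in B6 by a log2 of 1.83 (SE 0.32; adjusted p = 0.000169 in limma), and Cdc25b by 1.15 (SE 0.30; adjusted p = 0.00994 in limma). Bcl2l11, which encodes the cell death inducer BIM, was lower in B6 at -0.84 (SE 0.14; adjusted p = 9.64e-05 in limma). All 5 B6 mice were above all D2 mice for Gadd45a, and below them for Bcl2l11. By column name 5 of 21 were called, where 29.8% of all genes were, among them Gadd45a at 1.61, Cdc25b at 1.06, Bcl2l11 at -0.93 and Igf1r at -0.36.

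The other calls between strains were Cdkn1b at 0.27, Igf1r at -0.41 and Alcam at -0.43 (adjusted p = 0.161, 0.0684 and 0.178 in limma). By column name Cdkn1b (0.23) and Alcam (-0.28) were not called. Cdkn1b also lost the call without B6 control mouse 5 (0.18), D2 control mouse 2 (0.25) or D2 control mouse 5 (0.21). Alcam lost it without B6 control mouse 1 (-0.32), 4 (-0.37) or 5 (-0.42), or D2 control mouse 1 (-0.45), 2 (-0.32), 3 (-0.42) or 4 (-0.38), and also without the mean-variance trend (-0.43) or after quantile normalization (-0.40). For the difference of effects between strains 1 of 21 was called, where 5.37% of all genes were, and by column name none, where 10.1% were.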

How the data were processed

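The authors counted miRNA reads with miRDeep2 (miRBase 21, Bowtie 1.1.1, GRCm38) and gene reads with HTSeq after STAR alignment, removed low features, and deposited log2 CPM values from voom. The paper then adjusted AGO2 mRNA for experimental cohort and AGO2 miRNA for surrogate variables found in the data. Such adjusted values were not used here, so fits can differ from those of the paper. Depth came from converting the values back to reads, all of them whole to within 0.0001. Values of a data set were fitted in 1 model over all its groups with limma 3.58.1 (R 4.3.3), with a mean-variance trend. A call was an unadjusted p under 0.05 with a fold of at least 1.2, and p-values were adjusted by Benjamini-Hochberg over all features. Fold changes are on the log2 scale with 0.5 reads added, which understates changes of scarce features. Single values were also tested by exact permutation of samples, two-sided. The script was tested on simulated data.

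Members, target list and markers were chosen with earlier results of these data known. All members were named, and of the targets Dnmt1 and those called in any comparison, except 2 targets not reported here. Of other miRNAs, the text names the 3 with the highest correlation to the most abundant member of a tissue or to a called member. Whether pools of a group were processed independently is not given in the sources used here, so p-values measure the spread between these samples. Alternatives covered scaling, offset, filter, weights, trend, samples fitted, grouping of D2 mice and each sample left out. Same-numbered BNST pools did not deviate together, so no block was used.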

Additional observations from a re-analysis of the deposited data

Results flagged for a closer look

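Among 22 groups of 4 or more samples examined for the members, 1 held a sample far from the others. Resilient BNST pool 2 had a mmu-miR-148a-5p level of 4.52 log2 CPM, against 3.74 to 3.87 in the other 4 resilient pools. Chance marks about 1 in 20 such groups, so 1 of 22 is near that number. Without this pool the change in resilient against control pools was -0.02 in place of 0.12.

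The effect of susceptibility on mmu-miR-148a-5p in blood passed only the unadjusted call for a difference between strains, which 4.35% of all miRNAs passed. The log2 difference was -0.65 (D2 minus B6, exact permutation p = 0.00671, adjusted p = 0.748 in limma). The call was lost after quantile normalization. This difference rests on 38 to 110 reads a mouse and on 2 D2 mice whose label and column name disagree.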

How the results depend on the processing

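Of the log2 fold changes of members, hosts and targets recomputed under the alternatives, 1091 kept direction and side of the threshold, 62 lost a call, 7 gained one and 42 changed sign, none of these a called value. The cause was not tested. With sample weights 1 member was called in susceptible against resilient BNST pools and 1 in blood. In B6 susceptible blood against control 0 members were called after quantile normalization, with a filter at a mean log2 CPM of 5 (which removed mmu-miR-148a-5p) or with only the groups compared, and for the difference between strains 0 under the first and second of these. For blood mRNA the difference between strains gave 0 targets with a filter at a mean log2 CPM of 2 or by column name.

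Leaving out 1 sample at a time gave 0 to 1 members in BNST resilient against control, BNST susceptible against resilient, and blood susceptible against control. It gave 0 to 2 targets in BNST susceptible against resilient and in blood B6 susceptible against control, and 0 to 1 in blood B6 resilient against control, B6 susceptible against resilient, D2 susceptible against control and the difference between strains.

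Uncalled values that changed sign in BNST were mmu-miR-148b-5p in susceptible against control pools (-0.011 with sample weights), mmu-miR-148a-5p there (0.0037 when scaled to the reads' own total), mmu-miR-152-5p in susceptible against resilient pools (0.040 with 5 reads added, 0.16 with voom weights, 0.0033 when scaled to the reads' own total) and Copz2 there (-0.10 with 5 reads added). In blood, mmu-miR-148b-5p became 0.017 in D2 susceptible mice and 0.14 for the difference between strains, and Dnmt1 0.11 for that difference, after quantile normalization. Copz1 became -0.031 between strains by column name.

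With 1 sample left out, BNST values crossed 0 for mmu-miR-148a-3p (-0.071 to 0.094) and mmu-miR-148a-5p (-0.054 to 0.25) in resilient against control pools. In susceptible against control pools they did so for mmu-miR-148a-5p (-0.25 to 0.055), mmu-miR-148b-5p (-0.074 to 0.16), mmu-miR-148b-3p (-9.2e-05 to 0.056), Copz1 (-0.026 to 0.12) and Copz2 (-0.34 to 0.036), and for Copz1 in resilient pools (-0.13 to 0.0043). In susceptible against resilient pools they did so for mmu-miR-152-5p (-0.20 to 0.31), mmu-miR-152-3p (-0.026 to 0.47) and Copz2 (-0.12 to 0.22). In blood they did so for mmu-miR-148b-5p (-0.26 to 0.023) and Dnmt1 (-0.16 to 0.063) in the difference between strains, Copz1 (-0.080 to 0.14) and Dnmt1 (-0.0046 to 0.13) between strains, Copz1 (-0.20 to 0.027) and Dnmt1 (-0.30 to 0.021) in B6 susceptible against resilient mice, and Copz1 in D2 susceptible mice (-0.21 to 0.010).

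Same-numbered BNST pools had correlations of their deviations of -0.10 to 0.10 in miRNA and -0.17 to 0.14 in mRNA, so the numbers do not pair the pools. In a fit with a replicate block, 1, 0 and 0 members and 7, 8 and 0 targets were called in resilient against control, susceptible against control and susceptible against resilient pools. The block ended the calls of Abca1 (0.25) and Alcam (-0.42) in susceptible against control pools.

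Depth limits the scarce strands. A member with 10 to 42 reads a pool, such as mmu-miR-152-5p, had an interval for resilient against control pools from -0.25 to 1.22. Blood groups of D2 rest on labels that disagree with the column names for 2 mice.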
